A study of Mus musculus with 31 samples.

Results

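The Toll-like receptor genes Tlr1 to Tlr9 and Tlr13 were followed in RM-9 and MC-38 tumors after radiation therapy (RT). These 10 genes were taken by gene name from the 46072 genes of the deposited expression tables, and each was given by its level in every library. RM-9 is a mouse prostate cancer cell line and MC-38 a mouse colon cancer cell line. Both were grown subcutaneously on the right hind leg of wild-type C57BL/6 mice (male C57BL/6J mice in the study's methods), and the tumor was given 15 Gy of RT in 1 dose. Whole tumor tissue was taken for mRNA sequencing from control mice without RT and from mice 3, 12 or 24 h after RT, with 1 library per mouse. Each group held 4 mice, apart from RM-9 RT 24 h with 3, which made 15 RM-9 and 16 MC-38 libraries. The control mice of both models carry the 3 h time in their labels, so no unirradiated group stood beside the 12 h and 24 h groups, and 1 set of 4 control mice served all 3 RT groups of a model.

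Toll-like receptors are membrane proteins of innate immunity that bind molecules of microbes or of damaged cells. Those at the cell surface bind lipids and proteins of microbes, whereas those in endosomes bind nucleic acids. Most of them signal through the adaptor MyD88 to NF-κB, TLR3 signals through TRIF (gene Ticam1), and TLR4 uses both routes. In tumors they are known mainly from macrophages, dendritic cells and neutrophils, and some tumor cells carry them as well. Here, 5 members were counted as cell-surface receptors and 5 as endosomal receptors. At the surface, TLR2 pairs with TLR1 or TLR6 to bind bacterial lipopeptides, TLR4 binds lipopolysaccharide together with MD-2 (gene Ly96), and TLR5 binds flagellin. In endosomes, TLR3 binds double-stranded RNA, TLR7 and TLR8 belong to the single-stranded RNA receptors, TLR9 binds unmethylated CpG DNA, and TLR13, a receptor that mice have, binds bacterial ribosomal RNA.

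Expression was given in TPM, the transcripts of a gene per 1000000 transcripts of its library, and the depth was 21.4 to 29.4 M reads per library as computed from the deposited coverage. TPM is a share of each library, and mitochondrial transcripts took 47.3 to 57.2% of it in RM-9 and 22.5 to 40.6% in MC-38 libraries, so every comparison was also run after median-ratio scaling, which sets the libraries to the same middle gene. Epithelial markers separated the models. Their 5 genes summed to 0.553 to 1.56 TPM over the MC-38 libraries and 669 to 1526 TPM over the RM-9 libraries, although both lines are labelled adenocarcinoma. All 10 macrophage markers were detected above 0.5 TPM on average in every group. Skeletal muscle markers ranged from 2.75 to 9783 TPM between libraries, with the highest value in MC-38 control mouse 1.

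The locations of the genes are given as in the tables, whose coordinates match mouse build GRCm38. Tlr1 (ENSMUSG00000044827, chr5:64924679-64933563) and Tlr6 (ENSMUSG00000051498, chr5:64952031-64960097) are neighbors on the minus strand. Tlr7 (ENSMUSG00000044583, chrX:167304929-167330558) and Tlr8 (ENSMUSG00000040522, chrX:167242696-167264329) are neighbors on the minus strand of chromosome X, where Tlr13 (ENSMUSG00000033777, chrX:106143204-106160493) lies on the plus strand. Tlr3 (ENSMUSG00000031639) is at chr8:45395665-45410608, Tlr9 (ENSMUSG00000045322) at chr9:106222598-106226883, Tlr2 (ENSMUSG00000027995) at chr3:83836272-83841767, Tlr4 (ENSMUSG00000039005) at chr4:66827584-66930284 and Tlr5 (ENSMUSG00000079164) at chr1:182954788-182976044. No other gene in the tables overlapped any of the 10 spans. Tlr1 and Tlr6 are paralogs with stretches of near-identical sequence, and how reads that fit both were assigned is not given in the sources used here.

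RefSeq promoter entries on GRCm38.p6 were matched by symbol for 8 of the 10 genes, with 10 entries in all, since Tlr1 and Tlr6 have a pair each. Of the pair of Tlr1, the entry with a match is shown. The 250 bases before the start are shown for Tlr3, the member with the largest difference between the models, and for Tlr1, Tlr9, Tlr13 and Tlr8, the members with an entry that were lower together in MC-38 tumors at 12 h. Capitals mark matches, on either strand, to 4 motifs, which are the PU.1 core GAGGAAG, the NF-κB core (GGGA, any 2 bases, TTCC), the interferon-stimulated response element core (GAAA, any 2 bases, GAAA) and the ETS-IRF composite (GGAA, any 2 bases, GAAA).
Tlr3 (chr8:45410381-45410630, minus strand): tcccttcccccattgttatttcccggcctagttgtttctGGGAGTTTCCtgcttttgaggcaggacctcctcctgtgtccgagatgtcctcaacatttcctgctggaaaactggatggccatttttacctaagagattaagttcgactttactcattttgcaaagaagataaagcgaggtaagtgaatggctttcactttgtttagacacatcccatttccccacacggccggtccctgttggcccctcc
Tlr1 (chr5:64933559-64933808, minus strand): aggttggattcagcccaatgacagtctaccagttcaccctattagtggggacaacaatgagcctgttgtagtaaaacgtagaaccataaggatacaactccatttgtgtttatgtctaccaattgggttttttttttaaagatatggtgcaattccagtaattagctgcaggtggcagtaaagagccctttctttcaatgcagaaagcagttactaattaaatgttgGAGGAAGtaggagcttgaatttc
Tlr9 (chr9:106222348-106222597, plus strand): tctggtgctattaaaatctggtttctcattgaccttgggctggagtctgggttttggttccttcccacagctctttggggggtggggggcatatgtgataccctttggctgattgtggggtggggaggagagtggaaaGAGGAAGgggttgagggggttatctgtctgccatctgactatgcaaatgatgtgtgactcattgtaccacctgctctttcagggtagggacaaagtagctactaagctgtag
Tlr13 (chrX:106143025-106143274, plus strand): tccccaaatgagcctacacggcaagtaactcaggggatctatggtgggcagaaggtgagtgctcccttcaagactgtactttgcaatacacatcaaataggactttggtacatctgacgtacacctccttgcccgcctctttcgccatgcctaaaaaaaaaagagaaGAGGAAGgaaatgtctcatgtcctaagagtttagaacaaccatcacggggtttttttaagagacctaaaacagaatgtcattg
Tlr8 (chrX:167264330-167264579, minus strand): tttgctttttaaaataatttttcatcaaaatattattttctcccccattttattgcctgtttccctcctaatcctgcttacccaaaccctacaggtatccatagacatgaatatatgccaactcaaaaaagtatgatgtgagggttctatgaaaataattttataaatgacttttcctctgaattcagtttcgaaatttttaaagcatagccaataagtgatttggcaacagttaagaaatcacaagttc
Starts are those of the RefSeq entries. The Tlr3 window held the NF-κB core at 211 to 202 bases before the start. That start lies inside the Tlr3 span given above, which reaches 45410608. Most of this window and its NF-κB core therefore fall within the gene as the tables place it. The Tlr1, Tlr9 and Tlr13 windows each held the PU.1 core, at 23 to 17, 112 to 106 and 83 to 77 bases before the start. The Tlr8 window and the other Tlr1 entry held none of the motifs. Of the members not shown, a Tlr6 entry held the interferon core at 116 to 107 and 110 to 101 bases before the start. That Tlr6 window lies wholly inside the Tlr6 span. The Tlr2 and Tlr5 entries and the other Tlr6 entry held none of the motifs. Among all 32851 promoter windows of this length, 1.21% held the NF-κB core, 10.6% the PU.1 core, 2.98% the interferon core and 2.3% the composite, so the PU.1 letters are common. The letters are a description of these windows and do not show that a factor binds there.

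Both tumor models expressed the family without RT, at different levels. In RM-9 control mice, Tlr4, Tlr13, Tlr2 and Tlr1 led with means of 3.19, 2.64, 2.57 and 2.21 TPM. The other 6 genes lay at 0.281 TPM (Tlr5) to 1.02 TPM (Tlr7). In MC-38 control mice, Tlr3 led with 16.02 TPM ± 3.95 (SD, n = 4), followed by Tlr13 with 10.5 TPM and Tlr2 with 9.54 TPM. Tlr9, Tlr7, Tlr4, Tlr1 and Tlr8 lay between 4.88 and 6.78 TPM, Tlr6 at 1.30 TPM and Tlr5 at 0.617 TPM.

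Neighbors in this order mostly did not differ beyond their spread. In RM-9 control mice, only the steps from Tlr1 to Tlr7 and from Tlr6 to Tlr5 separated all mice of neighboring genes. In MC-38 control mice, only the steps from Tlr8 to Tlr6 and from Tlr6 to Tlr5 did so. The order also depended on the quantity. For Tlr7, the deposited TPM was 4.18 to 6.59 times the value that its coverage, the mean read depth per base, would give in the same library. The ratio was 2.74 to 3.89 for Tlr4 and 2.29 to 3.67 for Tlr8. For Tlr2, Tlr3, Tlr6, Tlr9 and Tlr13 its median was 1.00 to 1.02. On values from coverage, Tlr4 held 1.13 and Tlr7 0.216 in RM-9 control mice, so that Tlr13, Tlr2 and Tlr1 led there and Tlr4 was the fourth. In MC-38 control mice Tlr3, Tlr13, Tlr2 and Tlr9 kept the top places on either quantity. Every comparison between groups was therefore run on values from coverage as well, and the calls that differ are named beside them.

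**Figure D1:**
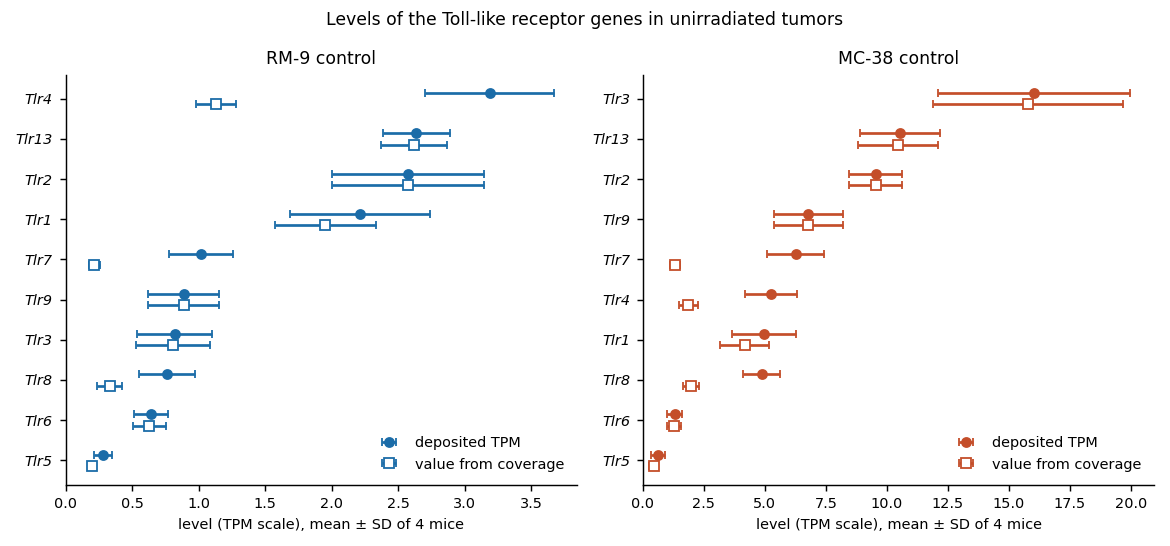
Mean level with SD over 4 control mice for each gene, RM-9 at left and MC-38 at right, on the TPM scale. Filled circles are the deposited TPM and open squares the values from coverage, and the circles and squares part for Tlr4, Tlr7 and Tlr8.

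Tlr3 was the member that separated the models most. Its values were 0.742, 0.910, 0.480 and 1.15 TPM in RM-9 control mice and 11.3, 14.3, 19.9 and 18.6 TPM in MC-38 control mice. Every MC-38 control mouse lay above every RM-9 control mouse, and the mean was 19.5 times as high. The log2 fold change was 3.64 ± 0.17 (SE) by limma (adjusted p = 2.5e-16), and 3.12 after median-ratio scaling. Over all libraries, RT groups included, Tlr3 was covered by about 66 to 203 reads in RM-9 and 1421 to 4829 reads in MC-38 tumors.

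The other endosomal receptors were also higher in MC-38 control mice. Tlr9 had 0.766, 0.816, 0.686 and 1.28 TPM in RM-9 and 5.94, 5.98, 6.30 and 8.90 TPM in MC-38 control mice (log2 fold change 2.39). Tlr7, Tlr8 and Tlr13 differed by 2.15, 2.09 and 1.80. At the surface, the log2 fold change was 1.72 for Tlr2, 0.99 for Tlr1, 0.66 for Tlr6 and 0.64 for Tlr4. The groups did not overlap for these 9 genes, and 50.9% of all genes tested likewise lay wholly higher in MC-38 control mice. In the limma fit of all 31 libraries, 9 of 9 members tested were higher in MC-38 tumors, beside 64.7% of all genes tested. After median-ratio scaling, 6 of 9 were higher, beside 34.1% of all genes, and Tlr1 (0.42), Tlr6 (0.23) and Tlr4 (0.04) no longer passed. Tlr5, at 0.231 to 0.377 TPM in RM-9 and 0.352 to 0.921 TPM in MC-38 control mice, was under the mean TPM of 0.5 needed for a test in the RM-9 fit and in the fit of all libraries.

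Within a library, the share of the family that falls to the endosomal receptors does not depend on the scaling. This share of summed TPM was 40.8% ± 1.98 (SD, n = 4) in RM-9 and 67.2% ± 2.19 (SD, n = 4) in MC-38 control mice, and the mice did not overlap. Markers of leukocytes were higher in MC-38 control mice too. Their 5 genes summed to 126 to 151 TPM in RM-9 and 259 to 388 TPM in MC-38, and the 10 macrophage markers to 396 to 623 and 924 to 1454 TPM. Since this is bulk tissue, fewer cells of a type and less RNA per cell cannot be told apart. The part of these markers in the difference between the models was not tested, and the models were also separate sets of libraries, which cannot be told apart from the model.

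**Figure D2:**
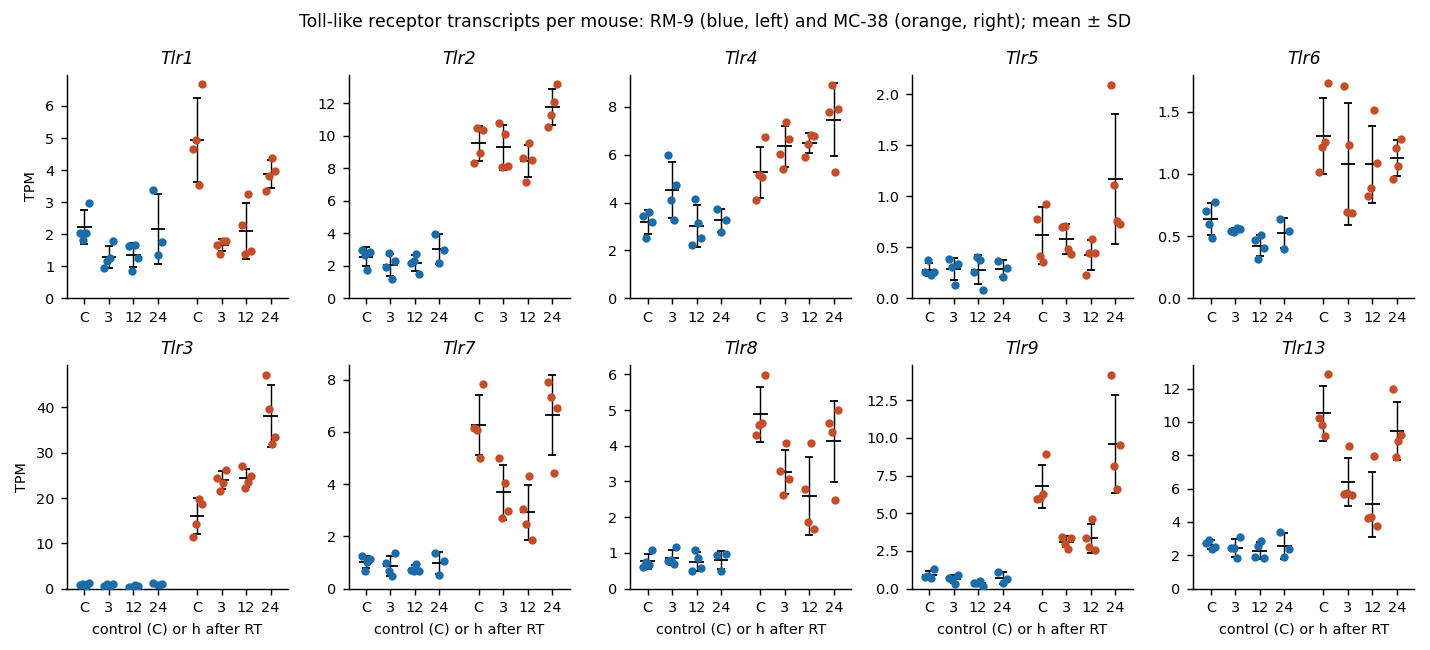
TPM of each of the 10 genes in every mouse, RM-9 at left and MC-38 at right of each panel, for control mice (C) and 3, 12 and 24 h after RT. Points are mice, and bars give the mean ± SD. In MC-38 tumors, Tlr1, Tlr7, Tlr8, Tlr9 and Tlr13 dip at 3 h and 12 h, whereas Tlr3 climbs to 32.0 to 47.1 TPM at 24 h.

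In RM-9 tumors, RT changed no member past the threshold. Of the 9 members tested, limma called 0 at 3 h, beside 0.228% of all genes, 0 at 12 h, beside 8.37%, and 0 at 24 h, where it called no gene at all (0.0%). At an unadjusted p under 0.05, 2, 4 and 0 members passed at these times, beside 21.8%, 31% and 4.86% of all genes. After median-ratio scaling 0 members passed at each time as well, beside 2.73%, 0.136% and 0.0% of all genes. Tlr1 had 2.03, 1.81, 2.02 and 2.99 TPM in control mice, 0.952, 1.17, 1.25 and 1.79 TPM at 3 h and 1.62, 0.849, 1.66 and 1.25 TPM at 12 h. The RT mice of both times were all under the lowest control mouse, and the two-sided exact permutation test gave p = 0.0286 at each time, the smallest that 4 mice against 4 allow. The log2 fold changes were -0.60 and -0.56, with adjusted p = 0.162 and 0.114.

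Tlr9 in RM-9 tumors went from 0.766, 0.816, 0.686 and 1.28 TPM in control mice to 0.397, 0.365, 0.520 and 0.194 TPM at 12 h, again without overlap. Its log2 fold change was -0.67 ± 0.22 (SE), with adjusted p = 0.063 on TPM and 0.0497 on values from coverage. After median-ratio scaling it was -0.56, with adjusted p = 0.257. The TPM of Tlr9 nearly equals its value from coverage (ratio 1.0), so the adjusted p-values on these quantities are not separate measurements of Tlr9. Of the members tested, Tlr1 was the 1 that lay wholly below control at 3 h, where 2.87% of all genes did, and Tlr1 and Tlr9 did at 12 h, where 19.4% of all genes did. Tlr4 had 3.42, 2.51, 3.62 and 3.20 TPM in control mice and 6.00, 4.10, 3.26 and 4.74 TPM at 3 h, with 3 of 4 RT mice above all control mice (log2 fold change 0.43, adjusted p = 0.200). The other members overlapped with control at all 3 times. Their log2 fold changes were between -0.40 (Tlr3 at 12 h) and 0.19 (Tlr2 at 24 h). Skeletal muscle markers had a median sum of 1056 TPM in RM-9 control mice, 15.0 TPM at 3 h and 45.9 TPM at 12 h, and their part in these values was not tested.

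In MC-38 tumors at 3 h, Tlr1 was lower. It had 4.65, 4.93, 3.52 and 6.69 TPM in control mice and 1.67, 1.39, 1.77 and 1.78 TPM at 3 h, so that the highest RT mouse lay well below the lowest control mouse. The log2 fold change was -1.31 ± 0.21 (SE, adjusted p = 0.037). It was the 1 of 10 members that limma called, beside 0.0637% of all genes in either direction and 0.0127% lower. The call was sensitive, since it was lost in 6 of the 8 fits that left out 1 mouse, with adjusted p up to 0.173 (without control mouse 4). It was kept without control mouse 3 and without RT mouse 4.

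The DNA receptor gene Tlr9 had 5.94, 5.98, 6.30 and 8.90 TPM in MC-38 control mice and 3.43, 2.95, 2.66 and 3.37 TPM at 3 h. The groups did not overlap (log2 fold change -1.002, adjusted p = 0.071). It passed after median-ratio scaling (-1.20, adjusted p = 0.041), where 0.357% of all genes were called lower. Tlr13 (log2 fold change -0.68) and Tlr8 (-0.52) also lay wholly below control, and Tlr7 (-0.71) did in 3 of 4 mice, with adjusted p between 0.146 and 0.243. Tlr3 went the other way and lay wholly above control, as 7.2% of all genes did, with a log2 fold change of 0.59 (adjusted p = 0.127). In all, 4 of 10 members were wholly below control at 3 h, where 0.975% of all genes were.

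At 12 h in MC-38 tumors, 5 members were lower. Tlr1 had 2.29, 1.38, 3.26 and 1.48 TPM (log2 fold change -1.09, adjusted p = 0.008). Tlr13 had 10.3, 9.81, 9.13 and 12.9 TPM in control mice and 4.24, 4.29, 7.95 and 3.75 TPM at 12 h (-1.03, adjusted p = 0.009). Tlr7, an RNA receptor gene, had 6.14, 6.08, 5.00 and 7.82 TPM in control mice and 3.04, 2.46, 4.31 and 1.84 TPM at 12 h (-1.02, adjusted p = 0.013). Control and RT mice did not overlap for any of these genes, and 1.97% of all genes lay wholly below control.

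The other lower members were Tlr9 and Tlr8. Tlr9 had 3.36, 2.75, 4.65 and 2.55 TPM at 12 h (-0.94, adjusted p = 0.013). Tlr8 had 4.29, 4.57, 4.65 and 5.99 TPM in control mice and 2.78, 1.87, 4.07 and 1.68 TPM at 12 h (-0.85, adjusted p = 0.021), and 3 of the 8 fits that left out 1 mouse lost it, those without control mouse 4, RT mouse 2 and RT mouse 4. Fitted on the compared groups only, Tlr8 did not pass (adjusted p = 0.0541), nor did Tlr3 at 12 h (0.0543). RT mouse 3 was the highest of its group in all 5 of these genes, and it had the highest macrophage marker sum of its group, 795 TPM against 335 to 540 TPM in the other 3 mice. Skeletal muscle markers had a median sum of 855 TPM in MC-38 control mice and 23.1 TPM at 12 h, and their part was not tested. Thus 5 of 10 members were called lower at 12 h, beside 2.59% of all genes, and 1 higher, beside 28.5%. After median-ratio scaling, which turned the split of all genes from 4469 higher and 406 lower to 995 higher and 1544 lower, the 5 genes were again called lower, with log2 fold changes of -1.39 to -1.15, beside 9.84% of all genes lower and 6.34% higher.

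Tlr3 was the member called higher at 12 h. It had 11.3, 14.3, 19.9 and 18.6 TPM in MC-38 control mice, 24.5, 21.5, 23.4 and 26.2 TPM at 3 h and 27.0, 22.1, 23.6 and 24.9 TPM at 12 h. All RT mice of both times lay above all control mice, as 34.5% of all genes did at 12 h. At 12 h the log2 fold change was 0.62 ± 0.16 (SE, adjusted p = 0.018). The middle gene itself rose by 0.33 in that comparison, and after median-ratio scaling Tlr3 had 0.28 (adjusted p = 0.187), so its call at 12 h rested on the TPM scale. With that scaling Tlr2 was called lower instead (-0.50, adjusted p = 0.025), although on TPM it had 8.30 to 10.5 TPM in control mice and 7.18 to 9.56 TPM at 12 h (-0.16, adjusted p = 0.321). Tlr4 was 0.29 on TPM and -0.03 after scaling, and Tlr5 and Tlr6 overlapped with control.

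**Figure D3:**
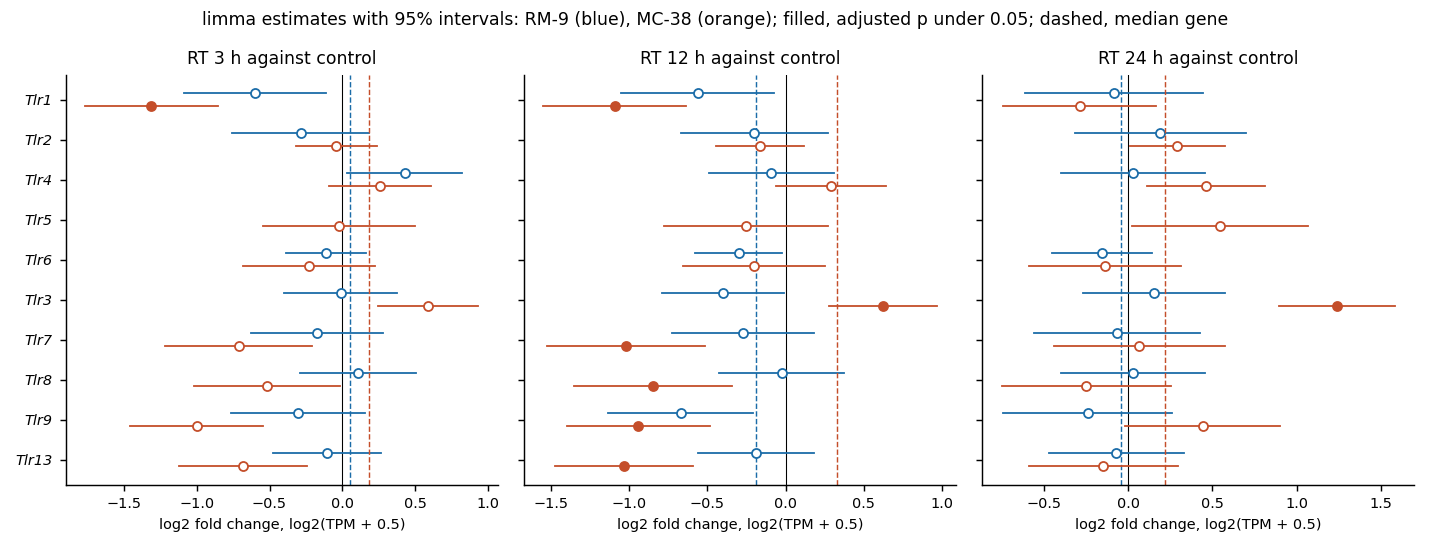
Log2 fold change against control on log2(TPM + 0.5) with the 95% interval from limma at 3, 12 and 24 h, RM-9 in blue and MC-38 in orange. Filled points passed an adjusted p of 0.05, and the dashed lines mark the median gene of each model. At 12 h in MC-38 tumors, 5 filled points lie left of 0 and Tlr3 lies right of it.

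At 24 h in MC-38 tumors, Tlr3 reached its highest level and the genes lower at 12 h overlapped with control again. Tlr3 had 47.1, 39.6, 32.0 and 33.5 TPM, and every mouse lay above every control mouse, all mice at 3 h and all mice at 12 h. The mean was 2.38 times that of control mice. The log2 fold change was 1.24 ± 0.16 (SE, adjusted p = 0.000413), and it was 0.98 after median-ratio scaling (adjusted p = 0.000783). It passed in all 8 fits that left out 1 mouse and in every other alternative run. Tlr3 was the 1 of 10 members called at 24 h, beside 13.8% of all genes in either direction and 13.2% higher, or 7.85% higher after median-ratio scaling, so the count itself is near the background.

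The genes that were lower at 12 h had 3.36 to 4.39 TPM (Tlr1), 4.42 to 7.91 TPM (Tlr7), 2.47 to 4.99 TPM (Tlr8), 6.63 to 14.2 TPM (Tlr9) and 7.91 to 12.0 TPM (Tlr13) at 24 h. Each overlapped with its control mice, although 2 of 4 mice lay below all control mice for Tlr13, and none passed (adjusted p of 0.178 to 0.871). After median-ratio scaling Tlr1 had -0.53, Tlr8 -0.49 and Tlr13 -0.40, against -0.29, -0.25 and -0.15 on TPM, and Tlr7 had -0.18 and Tlr9 0.19, with none called. Tlr2 lay wholly above control, as 14.8% of all genes did, with 10.6, 11.3, 12.1 and 13.2 TPM (exact permutation p = 0.0286), but its log2 fold change of 0.29 did not pass (adjusted p = 0.148) and was 0.04 after median-ratio scaling. Tlr4 had 7.78, 8.89, 5.28 and 7.90 TPM, above all control mice in 3 of 4 (log2 fold change 0.46, adjusted p = 0.073). Tlr5 was spread widely, with 2.09, 1.11, 0.758 and 0.728 TPM.

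The share of Tlr3 in the summed TPM of the 10 genes shows the shift within each library. In MC-38 tumors Tlr3 made up 24.2% ± 4.77 (SD, n = 4) of the sum without RT, 40.4% ± 3.34 at 3 h, 43.3% ± 5.27 at 12 h and 40.7% ± 2.71 at 24 h (SD, n = 4 each). The lowest RT mouse had 35.6% and the highest control mouse 31%. In RM-9 tumors the share lay between 3.24 and 6.97% in all 15 libraries. At 12 h in MC-38 tumors, Tlr3 rose on the TPM scale, while the sum of Tlr7, Tlr8, Tlr9 and Tlr13 went from 28.4 TPM ± 4.82 to 13.9 TPM ± 4.95 (SD, n = 4 each). At 24 h that sum was 29.9 TPM ± 6.80 (SD, n = 4).

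**Figure D4:**
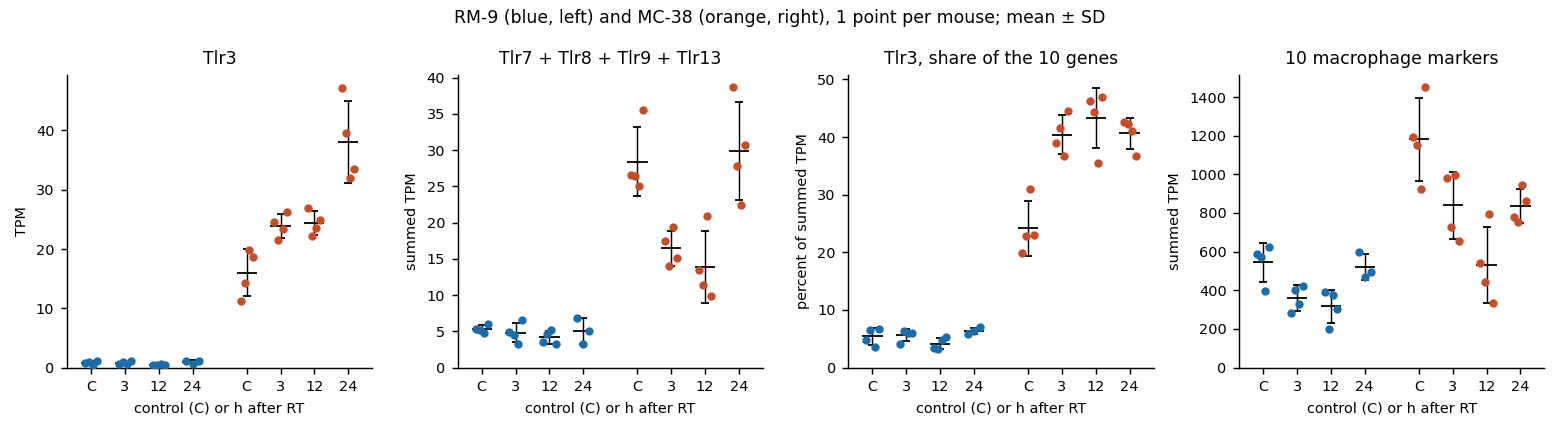
From left to right, TPM of Tlr3, summed TPM of Tlr7, Tlr8, Tlr9 and Tlr13, the percent of the 10-gene sum held by Tlr3, and the summed TPM of 10 macrophage markers, for every mouse of RM-9 (left) and MC-38 (right), with mean ± SD. In MC-38 tumors the 4-gene sum and the macrophage markers are lowest at 12 h, and the Tlr3 share is above control at every time after RT.

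The change after RT differed between the models for 3 members. This was tested as the MC-38 change minus the RM-9 change in 1 limma fit of all libraries. At 12 h, Tlr3 differed by 1.02 ± 0.24 (SE, adjusted p = 0.004), Tlr13 by -0.84 ± 0.28 (adjusted p = 0.018) and Tlr8 by -0.82 ± 0.31 (adjusted p = 0.033). Of the 9 members tested, 1 was called higher and 2 lower, beside 44.9% and 0.469% of all genes. On values from coverage, Tlr7 was called lower as well. The call of Tlr8 was lost in 7 of the 16 fits that left out 1 mouse, with differences of -0.78 to -0.67 in those fits, which left out RM-9 control mouse 1 or 3, RM-9 RT 12 h mouse 2 or 3, MC-38 control mouse 4, or MC-38 RT 12 h mouse 2 or 4. After median-ratio scaling the split of all genes was 1.53% and 1.31%, and Tlr13 (-1.29) and Tlr8 (-1.18) passed but Tlr3 did not (0.64, adjusted p = 0.132). Tlr1 and Tlr9, wholly below control in both models at 12 h, differed by -0.53 and -0.27 with 95% intervals of -1.19 to 0.12 and -0.91 to 0.37. At 24 h Tlr3 differed by 1.08 ± 0.25 (SE, adjusted p = 0.028), beside 1.81% of all genes, and by 0.82 after median-ratio scaling (adjusted p = 0.089), where 1.43% of all genes were called higher. That call was lost without RM-9 control mouse 4, RM-9 RT 24 h mouse 2, MC-38 control mouse 1 or MC-38 RT 24 h mouse 2, with differences of 0.97, 0.94, 0.93 and 1.06. At 3 h limma called no gene (0.0%) and no member, and 4 members, Tlr1, Tlr3, Tlr9 and Tlr13, had an unadjusted p under 0.05, beside 9.89% of all genes.

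Markers of macrophages were lower, as Tlr1, Tlr7, Tlr8, Tlr9 and Tlr13 were, in MC-38 tumors at 12 h, but followed them less closely at 24 h. In MC-38 tumors the 10 markers summed to 924 to 1454 TPM in control mice, 653 to 995 TPM at 3 h, 335 to 795 TPM at 12 h and 752 to 944 TPM at 24 h. At 24 h, mice 1, 2 and 4 had 779, 752 and 864 TPM, below every control mouse. The marker Csf1r was called lower then (-0.88, adjusted p = 0.020). The sum of Tlr7, Tlr8, Tlr9 and Tlr13 was 29.9 TPM at that time, beside 28.4 TPM in control mice. At 12 h, 7 of the 10 macrophage markers were called lower, together with 5 of 5 leukocyte markers and 3 of 5 T cell markers, beside 2.59% of all genes. In RM-9 tumors the macrophage marker sum was 396 to 623 TPM in control mice and 200 to 390 TPM at 12 h. There 5 of 10 were called lower, beside 8.3% of all genes, and 0 of 10 after median-ratio scaling. When each library was expressed relative to its macrophage marker mean, Tlr1, Tlr7, Tlr8, Tlr9 and Tlr13 at 12 h in MC-38 tumors lay between -0.13 and 0.11 and none passed. On that scale the median gene had 1.29 and 91.4% of all genes were called higher. Tlr3 had 1.58, and Tlr4, Tlr2, Tlr6 and Tlr5 were also called higher but lay below the median gene (1.25, 0.80, 0.76 and 0.70). Neutrophil markers had a median sum of 28.8 TPM in MC-38 control mice and 60.4 TPM at 24 h, with 1 of 6 tested called higher, beside 13.2% of all genes. That gene was Mmp9 (1.70, adjusted p = 0.024), which did not pass after median-ratio scaling (1.44, adjusted p = 0.060). Mmp9 reached 125 TPM in an MC-38 library and weighs heavily in the sum, whereas the neutrophil marker Ly6g had at most 0.168 TPM in MC-38 libraries. Of the plasmacytoid dendritic cell and B cell markers, cell types known for TLR7 and TLR9, the plasmacytoid markers Siglech and Ccr9 had at most 0.607 and 0.448 TPM and the B cell marker Ms4a1 at most 0.150 TPM in any library, while the B cell markers Cd79a (1.13) and Pax5 (0.97) were called higher in MC-38 tumors at 24 h. All 6 plasmacytoid markers together had a median sum of 27.1 TPM in RM-9 control mice and 10.5 TPM at 3 h, and of 29.95 TPM in MC-38 control mice and 18.03 TPM at 12 h, with none called after RT on TPM among the 2 tested in RM-9 and the 3 tested in MC-38 tumors, and 1 lower at 12 h in MC-38 tumors after median-ratio scaling. Cox6a2, which muscle also expresses, reached 121 TPM in an MC-38 library and ranged from 0 to 23.0 TPM over RM-9 libraries. In RM-9 libraries Il3ra had 9.18 to 14.7 TPM, whereas Siglech, Ccr9, Klk1 and Ly6d had at most 0.617 TPM each. The plasmacytoid sum in RM-9 tumors was thus mostly Il3ra and Cox6a2. Skeletal muscle markers there had a median sum of 1056 TPM in control mice and 15.0 TPM at 3 h. Their part in this sum was not tested. The dendritic cell marker Zbtb46 was higher in MC-38 tumors at 12 h (0.66, adjusted p = 0.017). It was also higher at 24 h (0.74, adjusted p = 0.011). Itgax was lower at 12 h (-0.75, adjusted p = 0.032). After median-ratio scaling Zbtb46 passed at 24 h (0.51) but not at 12 h (0.34). Cd79a (0.58), Pax5 (0.75) and the fibroblast marker Pdgfra (0.92) were also higher at 12 h, where 28.5% of all genes were. Of these, Pdgfra alone passed after scaling (0.59). The part of these cell types in the changes was not tested otherwise.

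The other genes of the pathway were taken from lists by role. Among 11 co-receptor and chaperone genes, MC-38 tumors at 12 h had 2 lower and 1 higher of 10 tested, beside 2.59% and 28.5% of all genes. The lower ones were Ly86 (-1.57, adjusted p = 0.00497) and Cd180 (-0.98, adjusted p = 0.012), whose products form a TLR4-like complex, and the higher one was Cnpy4 (0.44), which did not pass after median-ratio scaling (0.10). Of 5 endosomal proteases, which cut the nucleic acid receptors into their active form, Ctss (-1.07) and Lgmn (-0.43) were lower. In RM-9 tumors at 12 h, Unc93b1, the chaperone that brings the endosomal receptors to endosomes, was lower on TPM (-0.998, adjusted p = 0.029), but not after median-ratio scaling (-0.79, adjusted p = 0.177). Hsp90b1, a chaperone of most members, was higher in MC-38 tumors at 24 h (0.50 on TPM and 0.24 after median-ratio scaling, adjusted p = 0.013 and 0.018).

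Signaling genes were mostly called in the direction of the middle gene. Of 20 adaptors and kinases in MC-38 tumors, 8 were higher and 0 lower at 12 h, beside 28.5% and 2.59% of all genes. At 24 h 4 were higher and 0 lower, beside 13.2% of all genes higher. After median-ratio scaling 1 was higher at each time, beside 6.34% and 7.85% of all genes, and 1 lower at 12 h, beside 9.84%. Ticam1, the adaptor of TLR3, had 0.56 at 24 h on TPM and 0.32 after scaling, and passed on both (adjusted p = 0.016 and 0.028). Myd88 had 0.54 on TPM (adjusted p = 0.00845) and 0.28 after scaling (adjusted p = 0.110). In RM-9 tumors at 12 h Myd88 was lower on TPM (-0.48, adjusted p = 0.048) and not after scaling. Of 6 transcription factors, 3 were higher in MC-38 tumors at 24 h, beside 13.2% of all genes. Irf7, a factor of the interferon response, was so after scaling as well (0.96 and 0.69). Of 10 negative regulators tested there, 4 were higher, beside the same 13.2%, led by Nfkbia (0.82) and Tnfaip3 (0.60), both known NF-κB targets.

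Early target genes of Toll-like receptors were higher in MC-38 tumors at 24 h. Of 13 tested, 11 were higher and 0 lower, beside 13.2% of all genes higher, with a median log2 fold change of 0.91 beside 0.22 for all genes. After median-ratio scaling 8 were higher, beside 7.85% of all genes. The smallest p-values belonged to Il6 (1.82, adjusted p = 0.000287), Ccl4 (1.68) and Ccl5 (1.56), which encode an interleukin and chemokines. At 12 h 2 were higher on TPM, Il6 (0.77) and Nos2 (1.26), beside 28.5% of all genes, and 0 after scaling, beside 6.34%. Cd86, a costimulatory gene of antigen-presenting cells, was lower (-1.16). In RM-9 tumors 0 of 12 tested passed at each time, beside 0.228%, 8.37% and 0.0% of all genes, and their median at 24 h was 0.53. These genes respond to many signals beside Toll-like receptors. Among 9 endogenous ligand genes tested, Fn1 was higher in MC-38 tumors at 12 h (1.77) and 24 h (1.57), beside 28.5% and 13.2% of all genes. The ligand gene Hspd1 was also higher at 12 h in MC-38 tumors on TPM (0.40, adjusted p = 0.023), but not after median-ratio scaling (0.05). In RM-9 tumors at 12 h Hspd1 was lower on TPM (-0.41, adjusted p = 0.037), beside 8.3% of all genes, and not after scaling (-0.19). In control mice, 11 of 13 targets tested were higher in MC-38 than in RM-9 tumors, beside 64.7% of all genes, and 8 after median-ratio scaling, beside 34.1%, with Cxcl10 (4.77), Ccl5 (3.24) and Ccl4 (3.18) among them.

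Across mice, members also varied together. Pearson correlations of median-ratio scaled levels are given as a description over libraries that share the RT groups. Among Tlr7, Tlr8, Tlr9 and Tlr13, the 6 pairs had r of 0.77 to 0.92 over the 16 MC-38 libraries and 0.43 to 0.72 over the 15 RM-9 libraries. Tlr3 had r of -0.01 to 0.40 with these genes in MC-38 and 0.43 to 0.71 in RM-9 tumors. Over 12256 genes compared, those most like Tlr3 in both models were Ifih1 (r of 0.88 in RM-9 and 0.94 in MC-38), Trim30a and Lgals9, of which Ifih1 encodes the cytosolic sensor of double-stranded RNA MDA5. Those most like Tlr9 were Fgl2 (0.95 and 0.94), Themis2 and Napsa. Tlr1 was most like Sirpa (0.91 and 0.92), Tlr2 like Ms4a6d (0.90 and 0.90), Tlr13 like Ptafr (0.81 and 0.84), Tlr7 like Sema4d (0.79 and 0.92), Tlr4 like Bach1 (0.82 and 0.84), Tlr6 like Rac2 (0.87 and 0.85) and Tlr8 like Adap2 (0.78 and 0.80). The mouse genome has 2 further members, and Tlr11 had at most 0.270 TPM and Tlr12 0.135 to 1.74 TPM in these libraries.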

How the data were processed

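Processed tables of 31 libraries, 1 per mouse, held TPM, FPKM and coverage for 46072 genes. The authors made single-end libraries of 75 bases with a stranded mRNA kit, and the deposited TPM and FPKM are their values per gene. The deposited coverage is the mean read depth per base, from which depth and approximate read numbers were computed. The aligner and quantifier are not given in the sources used here, and the depositors' processing notes name bcl2fastq 2.17. Those notes name GRCm39, but the coordinates match GRCm38, which is used here. FPKM was not used in tests.

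Groups followed the labels. log2(TPM + 0.5) of genes with a mean of at least 0.5 TPM was fitted with limma 3.58.1 in R 4.3.3 (trended moderated variance), 1 fit per model for RT against control (14013 genes in RM-9, 15698 in MC-38) and 1 over all 31 libraries (15358 genes) for the comparisons between models. P-values were adjusted by Benjamini-Hochberg over all genes tested, at a threshold of 0.05. Single values were compared by the two-sided exact permutation test of mean TPM. Fold changes on log2(TPM + 0.5) understate the change of low genes. The labels do not say that same-numbered mice are linked, so mice were not paired. Their deviations were over 0.1 correlated in 9 of 23 pairs, which cannot settle a link in groups this small. The fits were tested on simulated data. The members and gene lists were chosen with earlier results of these data known. Genes named from a list were the 3 with the smallest p-values among those called, and for likeness the 3 with the highest lower correlation of both models. Other genes named were chosen after their values were seen. 1 marker gene is not reported here by name. Alternatives were other pseudocounts and filters, median-ratio scaling, TPM without mitochondrial genes, the compared groups alone, a replicate block, an untrended fit, levels relative to macrophage markers, Dunnett's comparisons as in the study, each mouse left out, and, added after seeing the data, values from coverage. Other steps ran in Python 3.11.15 with pandas 2.3.3, numpy 2.4.6, scipy 1.17.1 and, for figures, matplotlib 3.10.9.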

Additional observations from a re-analysis of the deposited data

Results flagged for a closer look

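In 3 of 70 groups of 4 mice, the highest mouse stood far from the others by Dixon's criterion, which chance gives in about 1 of 20 groups. Tlr9 had 8.90 TPM in MC-38 control mouse 4, beside 5.94 to 6.30 TPM in the other 3 mice. Tlr13 had 8.56 TPM in MC-38 RT 3 h mouse 3, beside 5.64 to 5.75 TPM, and 7.95 TPM in MC-38 RT 12 h mouse 3, beside 3.75 to 4.29 TPM. The RT 12 h mouse also had the highest macrophage marker sum of its group.

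The change after RT differed between MC-38 and RM-9 tumors by the limma interaction test in 4 cases. At 12 h the difference was 1.02 for Tlr3, -0.82 for Tlr8 and -0.84 for Tlr13 on the log2 scale. At 24 h it was 1.08 for Tlr3.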

How the results depend on the processing

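Tlr3 at 24 h in MC-38 tumors and the 9 members higher in MC-38 control mice kept their direction under every alternative but levels relative to macrophage markers, where Tlr1, Tlr4 and Tlr6 turned in the baseline comparison. The single call at 3 h in MC-38 tumors, Tlr1, was the least stable. After median-ratio scaling and without mitochondrial genes, 2 members were called. With no filter on low values, the compared groups only, or levels relative to macrophage markers, 0 were called. A mean TPM of at least 5 also gave 0 calls, but Tlr1, at 3.15 TPM on average in MC-38 tumors, was then not tested. That filter left too few members for a value in RM-9 tumors. It gave 3 calls at 12 h in MC-38 tumors and 3 in the baseline comparison, where members under 5 TPM were likewise not tested. Values from coverage, added after seeing the data, gave 1 call at 12 h in RM-9 tumors (Tlr9), although the values of Tlr9 itself are nearly the same on both quantities. They also called Tlr7 lower in the difference at 12 h, as did a pseudocount of 1 and the compared groups only. For the difference between models, levels relative to macrophage markers gave 1 call at 12 h, and at 24 h 0 members were called with a pseudocount of 0.1, after median-ratio scaling, without mitochondrial genes, with the compared groups only, or relative to macrophage markers. At 12 h in MC-38 tumors the compared groups only gave 4 calls, all lower, and lost Tlr3 (adjusted p = 0.0543) and Tlr8 (0.0541). With 1 mouse left out, the calls in MC-38 tumors were 0 to 3 at 3 h, 5 to 6 at 12 h and 1 to 2 at 24 h, and for the difference 2 to 4 at 12 h and 0 to 1 at 24 h. At 24 h in MC-38 tumors Tlr4 joined Tlr3 without control mouse 4 (adjusted p = 0.046) or RT mouse 3 (0.0225). At 3 h without control mouse 3, Tlr3 and Tlr9 joined Tlr1 (0.0422 and 0.0423). Dunnett's comparisons on TPM newly passed Tlr6 (0.022) and Tlr9 (0.044) at 12 h in RM-9 tumors, and Tlr7 (0.029), Tlr9 (0.039) and Tlr13 (0.013) at 3 h and Tlr2 (0.043) and Tlr4 (0.031) at 24 h in MC-38 tumors, and lost Tlr9 at 12 h (0.053). The cause of these changes was not tested.

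Fits with the mouse number as a replicate block gave 0 calls at 3 h in MC-38 tumors (Tlr1 adjusted p = 0.0834) and 4 for the difference at 12 h, where Tlr7 joined (0.0486). Of 23 RT mice, 7 correlated best with the control mouse of their own number, and groups this small cannot exclude a link.

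Directions turned mostly for small values. Relative to macrophage markers, log2 fold changes in RM-9 tumors were 0.11 (Tlr2), 0.28 (Tlr6), 0.39 (Tlr3), 0.22 (Tlr7), 0.094 (Tlr9) and 0.29 (Tlr13) at 3 h, 0.049 (Tlr1), 0.41 (Tlr2), 0.52 (Tlr4), 0.31 (Tlr6), 0.21 (Tlr3), 0.34 (Tlr7), 0.59 (Tlr8) and 0.42 (Tlr13) at 12 h, and -0.011 (Tlr4) and -0.0087 (Tlr8) at 24 h. In MC-38 tumors they were 0.31 (Tlr2), 0.33 (Tlr5) and 0.13 (Tlr6) at 3 h, 0.80 (Tlr2), 0.70 (Tlr5), 0.76 (Tlr6), 0.11 (Tlr8) and 0.019 (Tlr9) at 12 h, and 0.034 (Tlr1), 0.18 (Tlr6), 0.075 (Tlr8) and 0.18 (Tlr13) at 24 h. The baseline values were -0.14 (Tlr1), -0.50 (Tlr4) and -0.48 (Tlr6), and the differences between models were 0.078 (Tlr9) at 12 h and 0.16 (Tlr1), 0.084 (Tlr8) and 0.28 (Tlr13) at 24 h. Median-ratio scaling turned Tlr4 (0.097) and Tlr8 (0.10) at 12 h in RM-9 tumors, Tlr4 at 12 h (-0.030) and Tlr7 at 24 h (-0.18) in MC-38 tumors, and the differences of Tlr2 (-0.43), Tlr4 (-0.099) and Tlr6 (-0.16) at 12 h and of Tlr2 (-0.15), Tlr6 (-0.12) and Tlr7 (-0.091) at 24 h. Without mitochondrial genes, Tlr4 (0.035) and Tlr8 (0.072) at 12 h in RM-9 tumors, Tlr7 (-0.032) at 24 h in MC-38 tumors, and the differences of Tlr2 (-0.21) and Tlr6 (-0.020) at 12 h and Tlr2 (-0.045) and Tlr6 (-0.060) at 24 h turned. The difference of Tlr9 at 12 h was 0.065 with a pseudocount of 0.1, and that of Tlr6 at 24 h -0.0040 with a pseudocount of 1.

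With 1 mouse left out, values that crossed 0 in RM-9 tumors ranged from -0.15 to 0.11 (Tlr3) and -0.21 to 0.0055 (Tlr13) at 3 h, -0.24 to 0.024 (Tlr4) and -0.14 to 0.084 (Tlr8) at 12 h, and -0.39 to 0.14 (Tlr1), -0.067 to 0.12 (Tlr4), -0.25 to 0.17 (Tlr7), -0.066 to 0.21 (Tlr8) and -0.26 to 0.094 (Tlr13) at 24 h. In MC-38 tumors they ranged from -0.11 to 0.017 (Tlr2) and -0.14 to 0.10 (Tlr5) at 3 h and -0.027 to 0.24 (Tlr7) at 24 h. The differences ranged from -0.29 to 0.0056 (Tlr6) at 3 h, -0.089 to 0.18 (Tlr2) and -0.022 to 0.21 (Tlr6) at 12 h, and -0.43 to 0.11 (Tlr1), -0.085 to 0.29 (Tlr2), -0.075 to 0.12 (Tlr6), -0.11 to 0.32 (Tlr7) and -0.24 to 0.12 (Tlr13) at 24 h. Low read numbers limit what could be detected in RM-9 tumors, with 23 to 133 reads for Tlr9 and 38 to 81 for Tlr6 per library. Reads were not computed for Tlr1, Tlr4, Tlr5, Tlr7 and Tlr8, whose TPM lay above the value from coverage. On values from coverage in RM-9 control mice, Tlr5 (0.200), Tlr7 (0.216) and Tlr8 (0.332) lay below Tlr6 (0.631) and Tlr9 (0.888).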
